A study of Rattus norvegicus with 50 samples.

Results

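The circadian clock genes of the rat mammary gland were followed over 50 rats. The list holds 10 genes of the molecular clock (Nr1d1, Nr1d2, Per1, Per2, Per3, Cry1, Npas2, Clock, Bmal1 and the output gene Dbp), and a gene entered where the array's annotation gives a probeset (the set of probes read as 1 value) that names this gene alone. That left 9 of the 10 genes among 18166 genes with such a probeset, each with 1 probeset, and all 9 passed the intensity filter that kept 15117 genes. Nr1d2 was not analysed here. The genes were chosen by their measured values, after the differences of Nr1d1, Dbp and their partners from the controls and their correlations in these data had been seen. Levels of the 9 genes between groups, and correlations among them, are therefore descriptions and carry no p-value.

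Female Sprague-Dawley rats were treated from postnatal day (PND) 1 to PND 180 with methyl paraben (MPB), triclosan (TCS), diethyl phthalate (DEP), a mixture of these 3 chemicals (MIX) or the olive oil vehicle alone (OIL, the controls), and all were sacrificed at PND 181. In the protocol, which describes DEP and vehicle only, the pups took in the treatment through the milk of their gavaged dams until weaning at PND 28. They received it by gavage afterwards. The same schedule was assumed here for MPB, TCS and MIX, whose doses are not given in the sources used. Each of the 5 treatments was given to 5 parous rats, mated at PND 97 and sampled after their own pups were weaned, and to 5 nulliparous rats of the same age. This gives 10 groups of 5 rats, written as DEP_par for parous and DEP_null for nulliparous rats treated with DEP. RNA came from both caudal glands of the fifth pair of each rat, with 1 array per rat. The animals were kept under artificial light and dark cycles and sampled at random stages of the estrous cycle. The labels give the day of sacrifice, and no hour of the day is given in the sources used here. A whole gland holds epithelium, fat, stroma and, in some rats, lymph node, so fewer cells of a type and less RNA per cell cannot be told apart.

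Values are log2 signals of the array, so a difference of 1 is a 2-fold difference. RNA was extracted with a Promega kit in 26 rats and a Zymo kit in 24 rats. The kit coincides with the labelled batch, so kit and batch cannot be told apart. The DEP groups hold 1 Promega and 4 Zymo rats each, and the other groups 3 and 2. The kit moved 12439 of 15117 genes (82.3%) at an adjusted p under 0.05 in limma, with a median size of 0.53 log2, and it was therefore fitted as a term. Of the clock genes, Per2, Per1 and Nr1d1 had larger kit differences than 97.2%, 96.9% and 93.2% of all genes. Zymo minus Promega, the difference was -2.20 log2 for Per2 (SE 0.10), -2.15 for Per1 (SE 0.09), -1.80 for Nr1d1 (SE 0.12), -1.61 for Clock (SE 0.06) and -1.43 for Per3 (SE 0.08), whereas it was 0.20 for Cry1 (SE 0.07) and 0.04 for Bmal1 (SE 0.11). Levels below are therefore given within a kit, or after the fitted kit difference was removed (kit-adjusted). The fit holds 1 kit difference per gene for all groups, so a kit difference that varies between groups remains in kit-adjusted values.

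The mammalian clock is a loop of transcription and repression that runs in nearly every cell. BMAL1 pairs with CLOCK or NPAS2 and drives the Per, Cry and Nr1d1 genes and Dbp through E-box elements. PER and CRY proteins return to repress this pair, while the nuclear receptor REV-ERBα, the product of Nr1d1, represses Bmal1. In rodent tissues Bmal1 transcripts therefore peak when those of Nr1d1 and Dbp are at their trough, and a snapshot of several animals can show the 2 arms moving against each other. The mammary gland carries such a clock, and its gene levels are known to shift between pregnancy, lactation and the adult resting gland.

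The promoter windows below show the elements through which these genes are known to be linked, for Nr1d1, Per2 and Bmal1 and for Ciart, a repressor of the clock outside the list that passed a group comparison. Each is a window of 300 bases that takes in a RefSeq start of the gene (assembly GRCr8), and the capitals mark the motifs found on either strand. The Nr1d1 window printed lies at a start inside the gene, which spans bases 84224599 to 84231812 of its chromosome. The motifs searched were the E-box CACGTG, the E-box-like CACGTT, the D-box TTATGTAA or TTACGTAA, the REV-ERB and ROR core AGGTCA and the cyclic AMP response element TGACGTCA.
Nr1d1, chr10:84229405-84229704, minus strand: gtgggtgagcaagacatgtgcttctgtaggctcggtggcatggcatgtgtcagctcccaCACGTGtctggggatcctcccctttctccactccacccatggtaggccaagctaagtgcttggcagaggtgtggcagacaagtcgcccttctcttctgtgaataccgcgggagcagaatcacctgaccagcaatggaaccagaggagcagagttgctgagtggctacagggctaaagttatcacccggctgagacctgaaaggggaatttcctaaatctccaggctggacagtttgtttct
Per2, chr9:99496944-99497243, minus strand: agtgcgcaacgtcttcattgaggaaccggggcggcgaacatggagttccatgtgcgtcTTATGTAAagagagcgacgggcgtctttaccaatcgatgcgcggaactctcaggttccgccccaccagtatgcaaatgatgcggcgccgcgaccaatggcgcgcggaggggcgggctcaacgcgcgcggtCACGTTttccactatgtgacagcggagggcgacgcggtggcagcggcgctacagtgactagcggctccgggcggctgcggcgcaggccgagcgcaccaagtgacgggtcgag
Bmal1, chr1:176766078-176766377, plus strand: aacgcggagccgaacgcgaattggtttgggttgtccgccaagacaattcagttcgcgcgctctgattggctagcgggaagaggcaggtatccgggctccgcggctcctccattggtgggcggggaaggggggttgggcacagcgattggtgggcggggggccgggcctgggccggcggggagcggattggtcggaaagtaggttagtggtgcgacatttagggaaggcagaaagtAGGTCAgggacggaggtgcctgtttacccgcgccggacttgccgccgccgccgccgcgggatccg
Ciart, chr2:186112197-186112496, minus strand: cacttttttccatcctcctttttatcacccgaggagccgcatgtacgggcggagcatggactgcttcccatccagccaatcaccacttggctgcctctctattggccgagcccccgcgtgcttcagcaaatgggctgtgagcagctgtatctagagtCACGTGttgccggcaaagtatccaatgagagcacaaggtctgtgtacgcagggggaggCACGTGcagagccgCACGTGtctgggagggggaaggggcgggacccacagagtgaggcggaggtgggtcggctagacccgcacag
The Nr1d1 window holds 1 E-box, beginning 191 bases before this inner start. The window at the outer start of the gene (84231763 to 84232062) holds no E-box and 1 E-box-like motif, 174 bases before that start. The Per2 window holds an E-box-like motif 62 bases and a D-box 192 bases before the start. The Bmal1 window holds AGGTCA 15 bases before the start, and the Ciart window holds 3 E-boxes, 93, 35 and 21 bases before it. Of all 33469 promoter windows of this length, 6.42% hold CACGTG, 4.83% CACGTT, 16.2% AGGTCA, 1.01% either D-box and 1.83% TGACGTCA, so single matches of the shorter motifs are common. None of these letters was found in the windows of Per1, Per3, Dbp, Npas2 or Clock. The Per1 window begins at base 54304126, inside the gene, so the outer start of Per1 at 54299002 was not searched. The windows of Per3 (166777751 to 166778050) and Npas2 (48959315 to 48959614) also leave out the outer starts, at 166778243 and 48959225. No matches overlapped in the windows of the genes named here.

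Nr1d1 (probeset 17660843) encodes the repressor REV-ERBα. Among Zymo rats its log2 level was 8.04 and 8.18 in the 2 OIL_par rats and 7.99 and 8.02 in the 2 OIL_null rats, against 8.44 to 9.93 in the 20 treated rats. All 4 controls thus lay below every treated rat extracted with this kit, of any chemical and parity. Across all 15117 genes such a gap was found for 5 genes (0.0331%). Treated rats were higher for 1 gene (0.00662%), Nr1d1 itself, and lower for 4 genes (0.0265%), Fut8, Mrc1, Riox1 and Tfec, which were named after their values were seen. Among Promega rats the 3 OIL_par rats had 9.23, 9.84 and 10.23 and the 3 OIL_null rats 10.47, 10.51 and 10.91, against 9.97 to 11.46 in the 20 treated rats. There the parous controls held ranks 1, 2 and 6 from the bottom of 26 rats, whereas the nulliparous controls lay within the treated rats, and 7 of 20 treated rats were above all 6 controls. No gene had such a gap among Promega rats (0%).

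Kit-adjusted means of Nr1d1 ranged from 10.26 ± 0.38 (SD, n = 5) in MPB_par to 8.96 ± 0.37 in OIL_par. Both control groups stood at the bottom of the order of 10 groups, OIL_null with 9.43 ± 0.48 just above OIL_par. The step between these 2 control groups, 0.48, was the only step between neighbours that exceeded the residual SD between rats (0.41). Groups farther apart in the order differ by more than that SD. The residual SD describes single rats and not the error of a group mean, so such steps are a description and no test. Against the controls of their own parity, Nr1d1 was higher by 1.31 log2 in MPB_par (SE 0.25, 2.47-fold), 1.07 in DEP_par (SE 0.25, 2.10-fold), 0.73 in TCS_par (SE 0.25) and 0.67 in MIX_par (SE 0.25). In nulliparous rats the differences were 0.73 for DEP (SE 0.25), 0.65 for MPB, 0.49 for TCS and 0.26 for MIX, the last 3 each with SE 0.25. The 4 parous comparisons share the same 5 controls, and so do the 4 nulliparous ones, so the differences of 1 parity are not independent of each other. Within kits the parous differences from controls were alike for MPB (1.27 among Zymo and 1.33 among Promega rats), whereas the nulliparous DEP difference was 1.29 among Zymo rats and 0.15 with the single Promega rat. The Zymo rats of MPB_null (8.99, 9.23), TCS_null (8.49, 9.37) and MIX_null (8.82, 8.90) also lay above both Zymo controls (7.99, 8.02). Their Promega rats overlapped the Promega controls (10.47 to 10.91). These ranged from 10.58 to 11.46 in MPB_null, 10.59 to 10.95 in TCS_null and 9.97 to 11.05 in MIX_null.

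**Figure D1:**
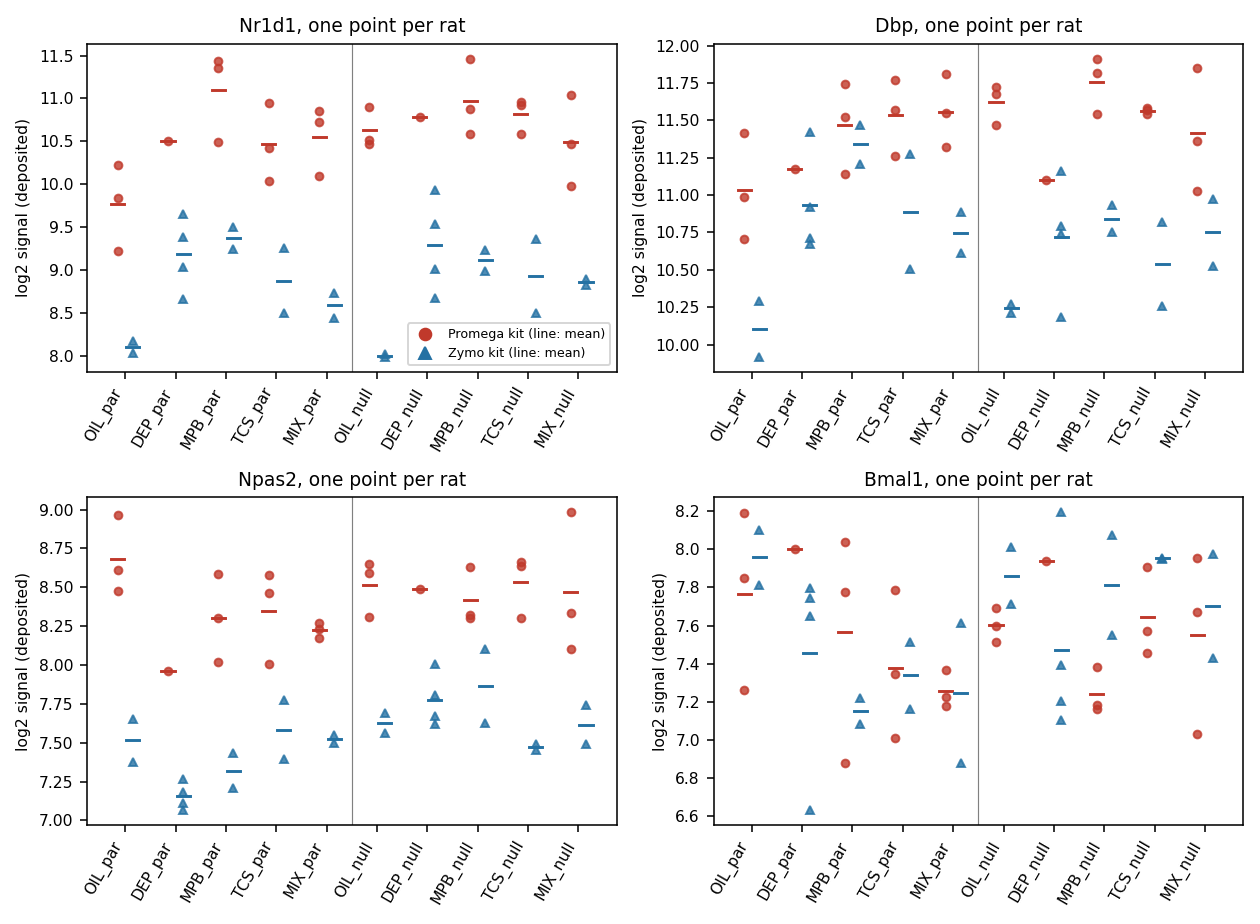
Deposited log2 signal of Nr1d1, Dbp, Npas2 and Bmal1 in each of the 50 rats (vertical axis) by treatment and parity group (horizontal axis, parous groups left of the grey line). Circles are Promega rats, triangles Zymo rats, and short lines the mean of a group within a kit. The 4 Zymo controls lie below all other Zymo rats for Nr1d1, at 7.99 to 8.18 against 8.44 to 9.93.

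With the thresholds of the study (a false discovery rate of 0.25 and a 1.5-fold difference), applied here to 1 limma fit of all rats and genes and not to repeated subsets of rats as in the methods, 2 of the 9 clock genes were called higher in DEP_par, Nr1d1 and Dbp, where 6.67% of all genes were called, 1.75% higher and 4.92% lower. In MPB_par 1 gene of the array was called (0.00662%), and it was Nr1d1. In DEP_null, where 2.23% of all genes were called, Nr1d1 was called higher (0.139% of all genes) and Cry1 lower (2.09%). No clock gene was called in the other 5 treatment comparisons, where 0% of all genes were called and between 236 and 825 of 15117 genes had an unadjusted p under 0.05 (with array weights, 76 genes were called in TCS_par, 4 of them clock genes), nor between parous and nulliparous rats, where 0.642% were called. Since these contrasts led to the choice of the list, the counts are given as they stand and nothing is read from them. Leaving out 1 rat at a time kept the Nr1d1 call in DEP_par in 10 of 10 cases (0.93 to 1.19 log2). The call in MPB_par was lost without MPB_par_137, MPB_par_141, MPB_par_142 or OIL_par_442 (1.15 to 1.47 log2 over all 10 cases). The call in DEP_null was lost without DEP_null_27, DEP_null_28, OIL_null_430 or OIL_null_431 (0.56 to 0.87).

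Dbp (probeset 17616470) encodes a PAR bZIP activator, a direct output of the clock. Its 2 Zymo rats of OIL_par had 9.92 and 10.29, against 10.68 to 11.42 in the 4 Zymo rats of DEP_par and 11.21 and 11.47 in those of MPB_par. Among Promega rats OIL_par had 10.70, 10.99 and 11.41, overlapping the 11.17 of the DEP_par rat and the 11.14 to 11.74 of the MPB_par rats. The parous controls were lowest of all 10 groups here too, with a kit-adjusted mean of 10.60 ± 0.30 (SD, n = 5) and a step of 0.41 to OIL_null that exceeded the residual SD of 0.33. Differences from OIL_par were 0.75 for MPB, 0.61 for DEP, 0.61 for TCS and 0.57 for MIX, each with SE 0.20. In nulliparous rats they were 0.32 for MPB, 0.08 for TCS, 0.08 for MIX and 0.02 for DEP, again with SE 0.20. Whether the treatment difference itself differs between parities was tested for all genes as an interaction in limma, and no gene passed an adjusted p of 0.25 (0%) for any of the 4 treatments (300 to 565 of 15117 genes had an unadjusted p under 0.05), so a parity-specific difference of Dbp is not shown. The Dbp call in DEP_par was lost without DEP_par_38, OIL_par_442 or OIL_par_444 (0.47 to 0.74 over 10 cases).

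The Period genes encode the repressors that, with CRY, close the loop. Per1 (probeset 17647373), which hormones and stress also induce, was highest in MPB_par (8.73 ± 0.23, SD, n = 5) and lowest in MIX_par (7.96 ± 0.23) after kit adjustment. All 5 MPB_par rats, at 8.50 to 9.07, were above all 5 OIL_par rats, which reached at most 8.49, and 0.351% of all genes had such a gap upwards in this comparison. Nr1d1 had the same kind of gap there and in DEP_par (0.635% of all genes), and no clock gene had one in MPB_null, where 0.814% of all genes did. Per2 (17866453) had its highest group mean in TCS_par, 9.26 ± 0.32, and its lowest in DEP_null, where the 5 rats ranged from 7.80 to 9.08, and group means of Per3 (17812917) ran from 9.27 ± 0.27 in OIL_par to 9.73 ± 0.19 in TCS_par. No step between neighbouring groups exceeded the residual SD for any of the 3 genes, so neighbours in each order differ by less than the spread between single rats. Against OIL_par, the estimates of the Period genes were between 0.13 and 0.51 log2 above 0 in DEP, MPB and TCS rats (SE 0.17 to 0.21), and in MIX rats Per2 and Per3 were 0.40 above and Per1 0.32 below.

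Cry1 (17827164), the other repressor measured, stood apart in 1 group, DEP_null. The 4 Zymo rats of DEP_null had 7.76, 7.78, 8.09 and 8.21, against 8.65 and 9.18 in the 2 Zymo controls, and its Promega rat had 7.89 against 8.06, 8.44 and 8.49. The DEP_null rats were thus below the controls within both kits. The kit-adjusted mean of 7.88 ± 0.20 (SD, n = 5) was the lowest of the 10 groups, by a step of 0.49 that was larger than the residual SD of 0.25, and the other 9 groups lay between 8.37 and 8.64 with no such step. The difference from OIL_null was -0.70 log2 (SE 0.16, 1.62-fold lower), against -0.07 (SE 0.16) for DEP in parous rats. No gene passed the interaction of DEP with parity at an adjusted p of 0.25 in limma (0%), so a parity-specific difference of Cry1 is not shown. The kit-adjusted values of the 2 groups did not overlap, which held for 3.28% of all genes in the downward direction. Without OIL_null_431, which had the highest Cry1 of all Zymo rats, the difference was -0.56 and no longer called.

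Of the activators, Npas2 (17858614), the partner that can stand in for CLOCK, was lowest in DEP_par. The 4 Zymo rats of DEP_par had 7.06, 7.11, 7.19 and 7.27 and the Promega rat 7.96, against 7.38 and 7.65 in the 2 Zymo and 8.48, 8.61 and 8.96 in the 3 Promega controls. No DEP_par rat reached a control of its kit. A gap of this kind downwards was seen for 3.98% of all genes in this comparison. The kit-adjusted mean was 7.59 ± 0.08 (SD, n = 5), 0.25 below the next group (residual SD 0.22), and the difference from OIL_par was -0.55 (SE 0.14, 1.47-fold lower), just under the fold a call asks for. Clock (17689370) had the smallest residual SD of the 9 genes, 0.20, and its group means ranged from 9.43 ± 0.32 in DEP_par to 9.84 ± 0.22 in TCS_par, with no step above that SD. Bmal1 (17619710), the core activator, was highest in OIL_par (7.85 ± 0.36) and lowest in MIX_par (7.26 ± 0.27). The 5 OIL_par rats had 7.26, 7.81, 7.85, 8.10 and 8.19 and the 5 MIX_par rats 6.88, 7.18, 7.23, 7.36 and 7.61, deposited values of both kits, and the groups overlapped through 1 control. Its differences from OIL_par were -0.29 for DEP (SE 0.24), -0.44 for MPB, -0.48 for TCS and -0.59 for MIX (SE 0.23 each), and in nulliparous rats between -0.24 and 0.06. No step of Bmal1 between neighbouring groups exceeded its residual SD of 0.38.

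**Figure D2:**
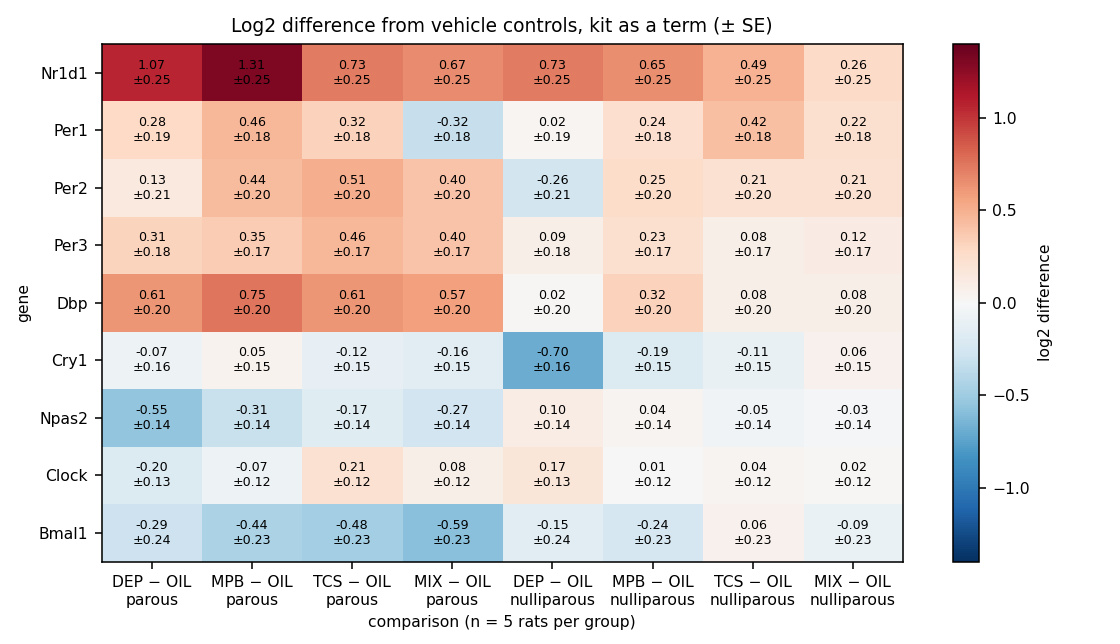
Log2 difference of each clock gene (rows) from the vehicle controls of the same parity (columns, 5 rats per group), with the standard error beneath, from the model with the kit as a term. Red is higher and blue lower than the controls. Nr1d1 is above its controls in all 8 columns, by 0.26 to 1.31, and Bmal1 below in 7 of 8. Among Promega rats alone, Nr1d1 of the nulliparous treated rats overlapped that of their controls. Columns of 1 parity share their controls.

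OIL_par had the lowest mean of the 10 groups for Nr1d1, Dbp and Per3 and the highest for Bmal1, and the step to the next group exceeded the residual SD for Nr1d1 and Dbp only. The other genes held no such place in OIL_par, with Npas2 at place 2, Cry1 at 4, Per1 at 7, Clock at 8 and Per2 at 9 from the highest. A test over all 10 groups (moderated F in limma, adjusted p under 0.05) called 1397 of 15117 genes (9.24%), among them Nr1d1, Cry1, Npas2 and Per1. Since the 9 genes were chosen through their values in these groups, nothing is read from their place among the genes called. Between parous and nulliparous rats, averaged over treatments, the estimates for the 9 genes lay between -0.22 (Npas2, SE 0.06) and 0.11 (Per2, SE 0.09).

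Cell type markers moved with DEP. In DEP_par all 12 luminal epithelium markers were called lower (median -1.14 log2), and all 10 lymphocyte markers had estimates above 0 (median 1.31), of which 2 were called. The luminal score, a mean of centred log2 values, was -1.38 to -0.27 in DEP_par and -0.06 to 0.45 in OIL_par. Macrophage markers were called lower in 4 of 7 cases in DEP_par (median -0.80) and in 5 of 7 in DEP_null (median -0.83). In DEP_null 6 of 12 luminal markers were called lower (median -0.60), and no lymphocyte marker was called (median 1.09, 10 of 10 above 0). The part of these cells in the clock gene differences was not tested. In MPB_par no luminal or lymphocyte marker was called (medians -0.08 and 0.01), nor one of macrophages (median -0.36, 0 of 7 above 0) or skeletal muscle (median 0.46, 7 of 7 above 0). All 9 glucocorticoid targets and all 7 immediate early genes had estimates above 0 in MPB_par (medians 0.16 and 0.20, none called), beside 50.8% of all genes. Of the 9 glucocorticoid targets, 2 were called lower in DEP_par (median -0.05) and 1 in DEP_null (median -0.23), beside 4.92% and 2.09% of all genes. Of the 7 immediate early genes, 4 were above 0 in DEP_par and 3 in DEP_null, none called. The Nr1d1 difference in MPB_par was 1.33 (SE 0.23) with lymphocyte, luminal and skeletal muscle scores in the model, which held no macrophage score. With these scores the DEP differences of Nr1d1 were 1.55 in parous and 1.01 in nulliparous rats (SE 0.31 and 0.26), Dbp in DEP_par was at 1.10 (SE 0.22), Npas2 in DEP_par at -0.48 (SE 0.19) and Cry1 in DEP_null at -0.67 (SE 0.18). In that model 4 genes were called in DEP_par and 2 in MPB_par, and Nr1d1 and Dbp were called in both.

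The rats of 1 group also differed from each other. For each gene the residual from its group and kit was taken, and residuals were correlated over the 50 rats. The group means and 1 kit difference, the same for all groups, are thus removed, but a kit difference that varies between groups remains. In OIL_null, kit-adjusted Nr1d1 was still 9.60 to 10.04 in Promega rats and 8.92 and 8.96 in Zymo rats. The points share the kits, the array normalisation and the mixture of cells in a gland, and the coefficients are descriptions. Nr1d1 and Dbp had r = 0.85 (rho = 0.84), the highest of the 15116 genes set against Nr1d1, and 0.83 without the 2 rats farthest out. Within kits r was 0.90 among the 24 Zymo rats and 0.91 among the 26 Promega rats. Group means were taken within the kit for these values. The residual of the single Promega rat of a DEP group is then 0. Residuals of 2 Zymo rats of 1 group mirror each other. Coefficients within a kit therefore rest on fewer free values than the number of rats. Nr1d1 and Bmal1 had r = -0.65 (rho = -0.63), the lowest of all 15116 genes, with -0.66 among Zymo and -0.71 among Promega rats and -0.60 without the 2 farthest rats. Dbp and Bmal1 had r = -0.81 (rho = -0.79), again the lowest of all genes for Dbp. The middle 98% of genes lay between -0.50 and 0.57 in their correlation with Nr1d1.

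**Figure D3:**
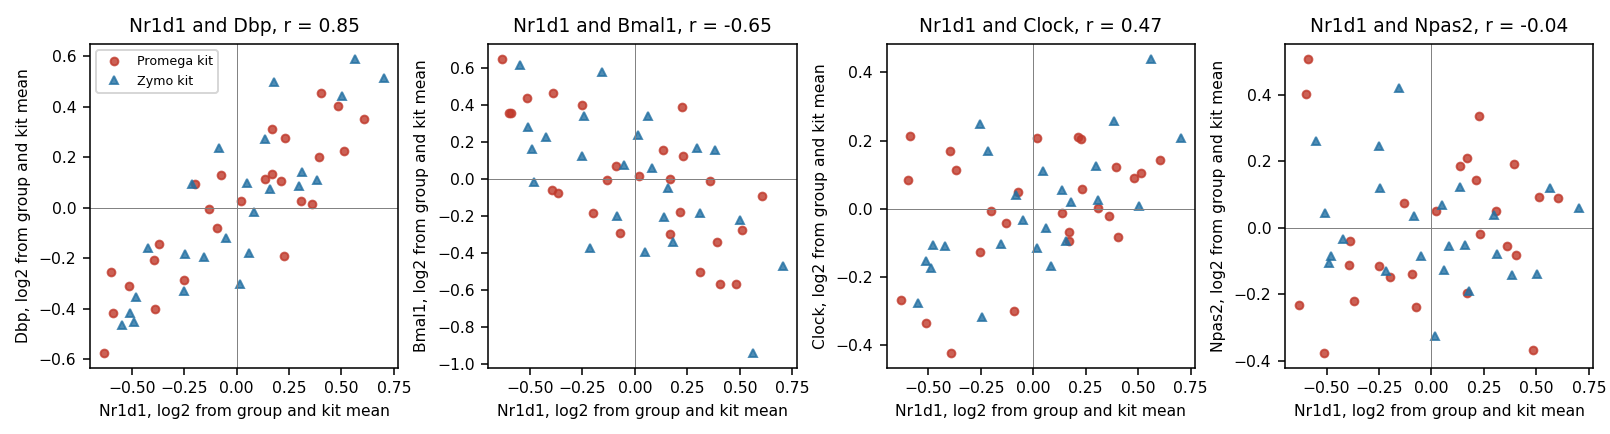
Residual log2 level of Dbp, Bmal1, Clock and Npas2 (vertical axes) against that of Nr1d1 (horizontal axes) in 50 rats, after group and kit means were removed. Circles are Promega and triangles Zymo rats. Dbp is higher where Nr1d1 is higher (r = 0.85) and Bmal1 lower (r = -0.65), Clock goes with Nr1d1 more weakly (r = 0.47) and Npas2 shows no relation (r = -0.04).

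All 10 pairs among Nr1d1, Per1, Per2, Per3 and Dbp were positive, from 0.31 (Per1 and Dbp) to 0.85, with a median of 0.60. They were also positive within each kit and with the cell type scores removed (medians 0.69, 0.59 and 0.51). Per2 and Per3 had r = 0.83. All 5 genes were negative with Bmal1, from -0.81 (Dbp) to -0.38 (Per1), and this held in each kit and with the scores removed (-0.73 to -0.46). Clock, its partner, was positive with the same 5 genes (0.43 to 0.56) and negative with Bmal1 (-0.53) and with the repressor gene Cry1 (-0.39). Among Promega rats the coefficients of Clock with the 5 genes were between 0.01 and 0.26, and that with Bmal1 was -0.19. Npas2 was near 0 with the same 5 genes (-0.14 to 0.01) and had r = 0.16 with Bmal1, but with the cell type scores removed it was negative with all 5 (-0.33 to -0.12) and had r = 0.45 with Bmal1. Cry1 was negative with all 5 (-0.48 with Nr1d1 to -0.22 with Per2), although 1 of the 5 was positive among Promega rats (Per2, 0.08), and it had r = 0.20 with Bmal1.

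**Figure D4:**
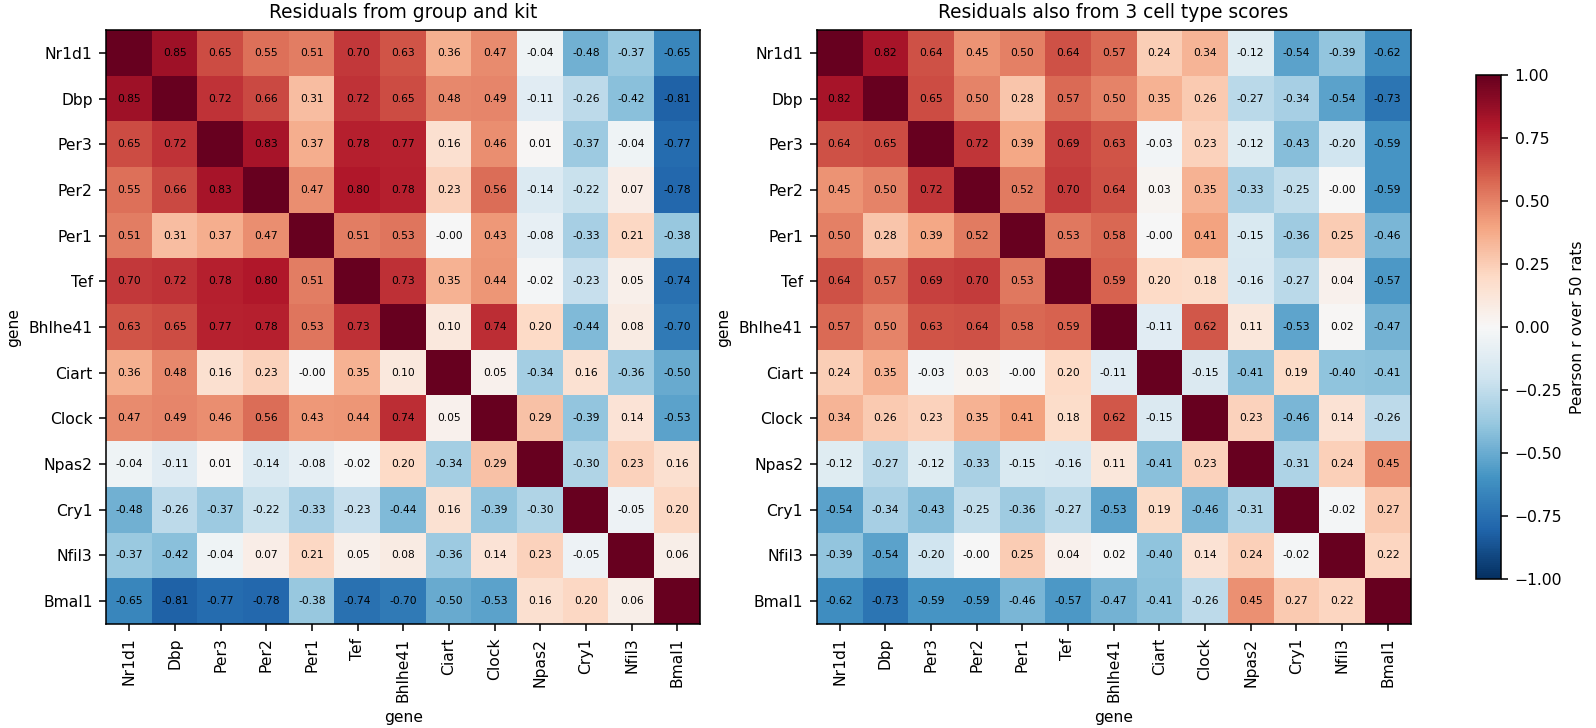
Pearson correlation over 50 rats between clock genes, 9 from the list and Tef, Bhlhe41, Ciart and Nfil3 from the clock lists outside it, for residuals from group and kit (left) and from group, kit and 3 cell type scores (right). Red is positive and blue negative. Bmal1 is negative with Nr1d1, Dbp, Per1, Per2 and Per3 in both panels, at -0.81 to -0.38 on the left and -0.73 to -0.46 on the right.

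Cell composition moved with several of these genes. The lymphocyte score had r = 0.76 with Bmal1, -0.64 with Per2, -0.63 with Per3, -0.56 with Dbp and -0.36 with Nr1d1 over the same residuals. The basal epithelium score had r = 0.78 with Per2, and the score of glucocorticoid targets, genes that the stress hormone corticosterone induces, had r = 0.67 with Per1 against 0.38 with Nr1d1. With lymphocyte, luminal and muscle scores removed, Nr1d1 and Dbp stood at 0.82, Nr1d1 and Bmal1 at -0.62, then the 7th lowest of all genes behind Ptgds (-0.68) and Exoc3 (-0.67) among others, and Dbp and Bmal1 at -0.73.

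Of 2 further lists of clock genes, 18 genes passed the intensity filter, 9 of the core clock and 9 outputs. In the group comparisons 1 of the 18 was called, Ciart in DEP_par (0.64 log2 higher, SE 0.16, limma adjusted p = 0.0111 over 15117 genes), where 6.67% of all genes were called, and 5 of 18 had an unadjusted p under 0.05, beside 22.2% of all genes. Both counts are near the share over all genes. The median difference was -0.10 for the core clock genes and -0.20 for the outputs in that comparison, beside -0.02 over all genes. In the other 8 comparisons none of the 18 was called. At an unadjusted p under 0.05 in limma there were 3 in TCS_par (3.12% of all genes), 2 in MPB_par (2.14%) and 2 in MIX_par (3.92%). Between parities there were 3 (22.6%), in DEP_null 1 (14.5%) and in TCS_null 1 (5.46%). MPB_null (2.62%) and MIX_null (1.56%) had 0. Over all 10 groups, Bhlhe40 (adjusted p = 0.0278) and Btrc (adjusted p = 0.00744) passed the moderated F test in limma, 2 of 18 beside 9.24% of all genes.

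The residuals of the same 18 genes were set against those of Nr1d1 over the 50 rats, as a description without p-values since Nr1d1 was chosen through its correlations. An absolute r of 0.3 or more, a limit set after the values were seen, was reached by 10 of the 18 genes (55.6%) and by 27.3% of all 15116 genes, so coefficients of this size are common on these arrays. Only 3 of the 18 stood above 0.57, which 152 of all genes exceeded. Tef, which encodes a PAR bZIP factor related to DBP, had r = 0.70 (rho = 0.71) and was the ninth of all 15116 genes. Bhlhe41, a repressor known as DEC2, had r = 0.63 (rho = 0.61), and Por, the reductase of microsomal P450 enzymes, r = 0.60 (rho = 0.60). Within Zymo and Promega rats these were 0.82 and 0.68 for Tef, 0.80 and 0.52 for Bhlhe41 and 0.73 and 0.51 for Por, and without the 2 farthest rats 0.68, 0.58 and 0.59. The kinase gene Csnk1e, whose product phosphorylates PER, had r = 0.53 (rho = 0.47), with 0.75 among Zymo and 0.34 among Promega rats. Bhlhe40 (0.51), Ciart (0.36), Rora (0.35), Cry2 (0.33) and Usp2 (0.32) were the other positive genes at this size. Rora and Usp2 were at 0.13 and -0.02 once the cell type scores were removed. Nfil3, which encodes the repressor that competes with DBP and TEF for D-boxes, had r = -0.37 (rho = -0.39), with -0.31 among Zymo and -0.16 among Promega rats. For Wee1, Nampt, Timeless, Csnk1d, Btrc, Tspan4, Fmo2 and Hif3a, r lay between -0.15 and 0.26.

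**Figure D5:**
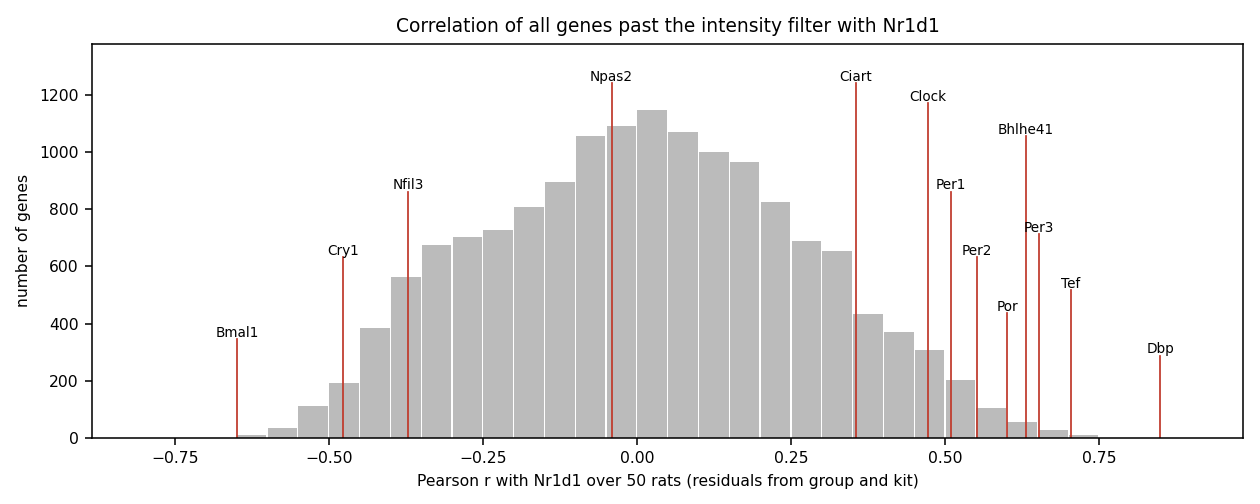
Distribution of the Pearson correlation with Nr1d1 over 50 rats (horizontal axis) for all 15116 other genes past the intensity filter (grey bars, number of genes per bin). Red lines mark clock genes at their r, and the height of a line only spaces the names. Dbp (0.85) and Bmal1 (-0.65) lie at the 2 ends.

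Outside the clock lists, the genes with the highest r to Nr1d1 were Cdc42bpg (0.72), Gdpd5 (0.72), Ppfibp1 (0.72), Adamts17 (0.71), Slc41a1 (0.71), Vdr (0.71), Duox1 (0.71) and Clmn (0.70), and those with the lowest, after Bmal1, were Zcchc9 (-0.64), Tgs1 (-0.64), Cd48 (-0.62), Taf1b (-0.62), Exoc3 (-0.61), Riok3 (-0.61), Tmem192 (-0.61), Ms4a6a (-0.60) and Cox18 (-0.60). Dbp was closest to Nr1d1, Kcnb2 (0.80) and Vdr (0.78), the vitamin D receptor, and Bmal1 to Dnase1l3 (0.85), Tmem123 (0.83) and Phkg2 (0.82). Per2 was closest to Carmil1 (0.88), Ptpn14 (0.84) and Yap1 (0.83), Per3 to Arhgef12 (0.88), Syne2 (0.88) and Usp54 (0.86), and Per1 to Errfi1 (0.73), Rgs16 (0.70) and Aqp1 (0.70). Clock was closest to Lrrc58 (0.78), Prkci (0.77) and Fnbp1l (0.76), Npas2 to Col5a3 (0.63), Igf1 (0.61) and Siglec5 (0.58), and Cry1 to Cinp (0.75), Pno1 (0.68) and Wdr12 (0.66). At the other end, the lowest r was that of P2ry13 with Per2 (-0.80), Cmtm7 with Per3 (-0.82), Commd1 with Per1 (-0.66), Prkd1 with Bmal1 (-0.81), Parl with Clock (-0.78), Tsr1 with Npas2 (-0.57) and Sec24b with Cry1 (-0.69). Nr1d1 and Dbp thus had each other at the upper end and Bmal1 at the lower end. For the other 7 clock genes the 3 nearest genes in each direction lay outside the clock lists, with 1 exception. Dbp was the 2nd lowest for Bmal1 (-0.81), beside Prkd1. Per3 ranked 4 from the highest for Per2 (0.83).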

How the data were processed

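Mammary RNA of 50 rats was profiled on Affymetrix Rat Gene 2.0 ST arrays. The authors background-corrected, quantile-normalised and summarised the intensities by robust multi-array averaging (RMA) in Affymetrix Expression Console and deposited log2 values per probeset. The methods also describe ComBat for the kit in R 3.0.2, but a kit difference remained in the deposited values. Array signals have no read depth, and the number of rats limits the precision.

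Probesets naming 1 gene were used, with the highest mean per gene. Genes passed the intensity filter where a group mean exceeded the 30th percentile of all values (5.58). All 50 rats were fitted in limma 3.58.1 (R 4.3.3) with 10 groups and the kit as terms, with Benjamini-Hochberg adjustment over 15117 genes. Kit-adjusted values and residuals come from this fit. The fit was tested on simulated data. Correlations and figures used Python 3.11.15 and matplotlib 3.10.9. The members and gene lists were chosen with earlier results of these data known. Named genes are the members, the 10 genes nearest to and farthest from Nr1d1 in r, the 3 nearest in each direction for each other member (fewer printed), and list members that passed a comparison. A cell type score averages the centred signals of a marker list in each rat.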

Additional observations from a re-analysis of the deposited data

Results flagged for a closer look

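In 3 of 90 sets of 5 rats (9 clock genes in 10 groups), 1 rat stood far from the other 4 of its group after kit adjustment, where chance alone marks about 1 set in 20. Per2 was 9.39 in TCS_null_229, above the next rat at 9.05 (gap 0.712 of the range of the group). Dbp was 10.65 in TCS_null_231, below the next rat at 11.19 (0.934 of the range). Bmal1 was 6.61 in DEP_par_38, below the next rat at 7.63 (0.724 of the range). This DEP_par rat also had the highest kit-adjusted Nr1d1 (10.59) and Dbp (11.81) of its group.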

How the results depend on the processing

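Which clock genes are called rests on few rats and on the kit term. The counts were 2 in DEP_par, 1 in MPB_par and 2 in DEP_null. Without a kit term they were 1 (Npas2 lower, with neither Nr1d1 nor Dbp called), 0 and 1 (Cry1), with the rats compared alone in the fit 1 (Nr1d1), 0 and 1 (Cry1), and among Zymo rats alone 0, 0 and 0. Among Promega rats alone, where a DEP group holds 1 rat assumed to vary like the others, the counts were 2 in DEP_par (Clock and Npas2 lower, not Nr1d1 or Dbp), 0 in MPB_par and 0 in DEP_null. The variance filter gave 1 in DEP_null (Nr1d1), since Cry1 did not pass it. At an adjusted p under 0.05 with no fold threshold the counts were 2 in DEP_par (Nr1d1 and Npas2), 0 in MPB_par, 0 in DEP_null and 1 between parities (Npas2). Array weights gave 2 in MPB_par and 4 in TCS_par. The 3 cell type scores gave 2 in MPB_par, Nr1d1 and Dbp, the only genes called there. The luminal score alone, chosen after seeing the data, gave 0 in DEP_null. Counts over all genes are not given here for array weights in MPB_par or for an adjusted p under 0.05 in DEP_par. Nothing is read from the counts of clock genes in these alternatives. Leaving out 1 rat at a time gave 1 to 2 in DEP_par, 0 to 1 in MPB_par, 0 to 2 in DEP_null and 0 in the other comparisons. Over all genes, the count in DEP_par was 1008, and 662 without a kit term, 2 among Zymo, 2669 among Promega, 4 with 3 scores, 2 with the luminal and 459 with the lymphocyte score alone, both chosen after seeing the data; in DEP_null, where the main setting called 2.23% of genes, it was 120, 0, 1, 36 and 0 in the first 5 of these, and 10 at an adjusted p under 0.05; between parities it was 97, and 47 among Zymo, 208 among Promega and 1242 at an adjusted p under 0.05. No called difference of a clock gene changed sign under any of these alternatives. Nr1d1 in DEP rats was 0.35 (parous) and 0.01 (nulliparous) without the kit term, where the 4 to 1 share of Zymo rats in the DEP groups enters the difference. Without a kit term the correlation was 0.92 for Nr1d1 and Dbp, -0.30 for Nr1d1 and Bmal1, -0.55 for Dbp and Bmal1, 0.98 for Per2 and Per3, 0.94 for Nr1d1 and Clock and 0.82 for Nr1d1 and Npas2, and Nr1d1 and Clock had 0.20 among Promega rats alone. Leaving out 1 rat at a time gave 0.84 to 0.86 for Nr1d1 and Dbp, -0.68 to -0.62 for Nr1d1 and Bmal1, -0.82 to -0.79 for Dbp and Bmal1, 0.81 to 0.84 for Per2 and Per3, 0.43 to 0.54 for Nr1d1 and Clock, -0.10 to 0.05 for Nr1d1 and Npas2 and -0.53 to -0.44 for Nr1d1 and Cry1. The cause of these shifts was not tested. No paired analysis was possible because the groups share no animal numbers.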
